A study of Homo sapiens with 12 samples.

Results

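VAMP3 and 9 genes for SNARE proteins that it works with or resembles (VAMP1, VAMP2, VAMP4, VAMP7, VAMP8, SNAP23, STX3, STX4 and STX6) were followed through RNA sequencing of KYSE150 and KYSE510, established lines grown from human esophageal squamous cell carcinomas. The rows were taken by name from a table of 38516 genes, and all 10 were found and passed the filter on low values. VAMP3 was chosen because its RNA was lower after HCP5 silencing in both lines, so its values on silencing are a description without a test. The other 9 entered by name and were tested, but the list was drawn up with earlier results of these data known. HCP5, which gives a long non-coding RNA, was silenced in the cells behind 3 libraries of each line. The groups were thus KYSE150 control, KYSE150 silenced, KYSE510 control and KYSE510 silenced, each with 3 libraries of cells grown in serum-containing medium. The series title links HCP5 to apoptosis through c-Myc and the protein UTP3. The labels name no silencing sequence. Titles begin with sh4 for silenced libraries and shc for controls in both lines, so the lines may share a silencing sequence. The labels do not say whether libraries came from separate cultures or clones, so p-values measure only the spread between these samples, which may be technical.

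SNARE proteins fuse membranes. An R-SNARE on the vesicle (here the VAMP proteins) zips together with Q-SNAREs on the target membrane (syntaxins and SNAP23) into a bundle of helices that pulls the membranes into contact. VAMP3, also called cellubrevin, sits on early and recycling endosomes and, with STX4 and SNAP23 among others, returns integrins and receptors to the cell surface. In epithelial cells SNARE-driven traffic supplies the surface with adhesion receptors and proteases.

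Reads assigned to genes ran from 20035025 to 28202422 per library, and every KYSE150 silenced library was deeper than every KYSE150 control. HCP5 itself had 0.779, 0.745 and 0.786 RPKM in KYSE150 controls and, without overlap, 0.315, 0.418 and 0.579 after silencing. In KYSE510 its 0.914, 1.85 and 1.40 in controls overlapped the 0.505, 0.951 and 0.948 after silencing, although the silenced library was lower in each same-numbered pair. RPKM are assigned reads scaled to exon length and library total, so levels are per length and can be set side by side between genes. Squamous markers were present (KRT5 204.9 to 1423 RPKM, TP63 14.9 to 24.6), while the summed RPKM of 10 markers of leukocytes, endothelium and fibroblasts was 0.202 to 0.427 in KYSE150 controls, 0.275 to 0.356 in KYSE150 silenced libraries, 1.12 to 2.36 in KYSE510 controls and 0.835 to 2.35 in KYSE510 silenced libraries. Most of the KYSE510 sum was CDH5 (at most 2.03). Of the leukocyte markers, PTPRC was at 0 in 8 of 12 libraries, CD79A in 7, CD3E in 4 and CD14 in 0 (CD14 at most 0.384).

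**Figure D1:**
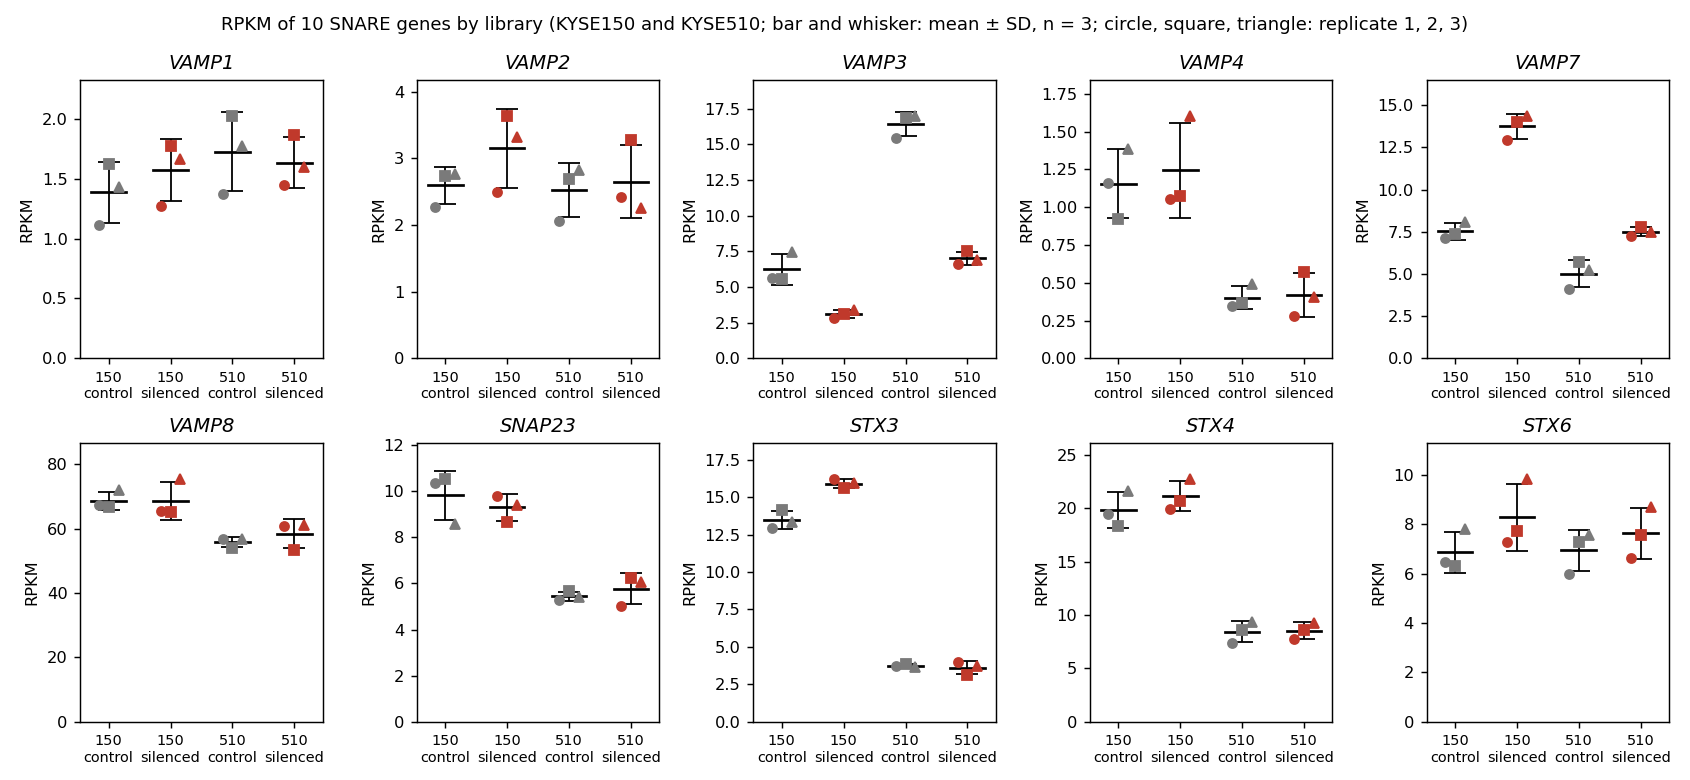
RPKM of the 10 genes in each of the 12 libraries (y axes start at 0 and differ between panels; x axis, group by line), with mean and SD of the 3 libraries of a group and the replicate number as the symbol. VAMP3 was lower and VAMP7 higher in the 3 silenced libraries than in the 3 controls of each line, and 6 of the other genes, VAMP7 included, are lower in KYSE510 controls than in KYSE150 controls.

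VAMP3 (chromosome 1, 7771269 to 7781432, plus strand, GRCh38, 6 exon blocks with 2760 bases) had 5.66, 5.56 and 7.49 RPKM in KYSE150 controls and 2.81, 3.13 and 3.37 in KYSE150 silenced libraries. In KYSE510 it had 15.4, 16.8 and 17.0 RPKM in controls and 6.63, 7.52 and 6.92 after silencing. All 6 silenced libraries lay below every control of their own line. In bulk RNA from a line, fewer cells with the transcript and less transcript per cell cannot be told apart.

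Mean VAMP3 after silencing was 49.8% of control in KYSE150 (3.11 ± 0.281 against 6.24 ± 1.08 RPKM, SD, n = 3) and 42.8% of control in KYSE510 (7.02 ± 0.452 against 16.4 ± 0.845, SD, n = 3). On the log2(RPKM + 0.5) scale, used for all differences below, the change was -0.89 in KYSE150 and -1.17 in KYSE510 (SE 0.11 each). Among 17823 genes it ranked 42 and 9 from the lowest change. Silenced libraries lay wholly below controls for 5.47% of genes in KYSE150, 6.87% in KYSE510 and 0.656% in both, and below in 6 of 6 same-numbered pairs for 2.77%. These shares are background only, since VAMP3 was picked for this. KYSE150 control replicate 3 was the highest of its group, and without it the change in KYSE150 was -0.76. Silenced KYSE510 cells kept about the level of unsilenced KYSE150 cells, the ranges being 6.63 to 7.52 and 5.56 to 7.49 RPKM. Between 204 and 1289 reads per library lay behind these values.

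Transcript sequences bear on how separately the VAMP genes were counted. The longest exact stretches that VAMP3 transcripts share with its near relatives VAMP1 and VAMP2, and the one those relatives share with each other, were short (GENCODE release 29, sense strand):
VAMP1 and VAMP2: gtgaacgtggacaaggtcctggag
VAMP2 and VAMP3: gatgaggtggtggacat
VAMP1 and VAMP3: aacgtggacaaggt
These are 24, 17 and 14 bases. Of 2709 distinct 50-base words in VAMP3 transcripts, 1 recurred in another gene (UQCRH), and of 2859 in VAMP7 transcripts, 0 did. Genes were compared by name, so the copy of VAMP7 on chromosome Y could not be counted here. VAMP2 and STX6 are less certain, since AC129492.3 holds 11.6% of the VAMP2 words and AL162431.2 holds 4.89% of the STX6 words. Both genes also overlap another gene on their own strand, as given below. Whether the shared words and the overlap are the same stretch under different gene names was not tested.

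One short 3′ UTR word is shown because it was found in other genes that were lower after silencing and also lies in HCP5. VAMP3 holds TCACCTA once, at position 1759 of its 1787-base 3′ UTR (chr1:7781393-7781421, plus strand, GRCh38, last exon, in 1 of 2 transcripts with an annotated 3′ UTR). The word is in capitals:
VAMP3 3′ UTR site: acccactgtaaTCACCTAaataaagtgtt
The 6 bases right after it spell AATAAA, the usual poly(A) signal, which 59.2% of 19133 genes hold in the last 40 bases of the 3′ UTR. The other 9 genes hold TCACCTA 0 times in theirs, and 7.65% of the 19133 genes hold it at least once on the sense strand. In HCP5 it occurs in 2 of 4 transcripts, in the same letters. Leaving out VAMP3, 14 genes with a 3′ UTR passed the threshold as lower in KYSE150, and 10 of them hold the word (71.4%), against 0 of 55 that passed as higher and 8.17% of 11393 tested. Of 932 tested genes with the word, VAMP3 included, 11 passed as lower in KYSE150 and 0 as higher. Their median log2 change there was 0.05, against 0.10 for the 10462 tested genes without the word. In KYSE510 the word was in 2 of 3 genes that passed as lower, VAMP3 included, and in 0 of 2 that passed as higher. The word was picked from earlier results on these same libraries, so these shares are a description.

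VAMP7 was the other R-SNARE that moved, and in the opposite direction. It encodes the longin-domain R-SNARE of late endosomes and lysosomes, also called TI-VAMP, and drives lysosome exocytosis and surface delivery. The gene (chromosome X, 155881293 to 155943769, plus strand, 2667 exon bases) lies in the pseudoautosomal region, where X and Y carry the same sequence, and the table lists it on X. In KYSE150 it had 7.11, 7.38 and 8.08 RPKM in controls and 12.9, 14.0 and 14.3 after silencing. In KYSE510 the controls had 4.13, 5.68 and 5.23 RPKM and the silenced libraries 7.24, 7.76 and 7.49. Every silenced library was above every control of its line.

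VAMP7 rose in KYSE150 from 7.52 ± 0.498 to 13.7 ± 0.746 RPKM (SD, n = 3), a 1.83-fold rise, with a log2 change of 0.83 (SE 0.10, limma adjusted p = 0.00864). In this contrast 0.499% of genes passed the threshold of 0.05, adjusted over all genes tested, 0.376% as higher and 0.123% as lower. In KYSE510 the means were 5.02 ± 0.799 and 7.50 ± 0.262 RPKM (SD, n = 3), with a log2 change of 0.55 (SE 0.10, limma adjusted p = 0.133), which did not pass. There 0.0393% of genes passed, 0.0224% as higher and 0.0168% as lower. The difference between the lines' changes was -0.28 (95% interval -0.61 to 0.04, limma adjusted p = 0.425), and the threshold was passed by 0.0% of genes for such a difference, with 2181 at an unadjusted p under 0.05. Silenced libraries lay wholly above controls for 13.7% of genes in KYSE150, 5.22% in KYSE510 and 1.33% in both.

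The VAMP7 call depended on the fit. In KYSE150 it was lost without silenced replicate 3, the highest library (0.80, limma adjusted p = 0.0531), and with the 6 libraries of that line alone (0.83, 0.0915), and the adjusted p-values over the 11 other settings ran from 4.95e-05 to 0.0915. In KYSE510 it was gained after centring each library on its median (0.57, 0.0305), after quantile normalization (0.58, 0.0329) and with voom on recovered reads in a replicate block (0.58, 0.00496). Over the 11 other settings the adjusted p-values in KYSE510 ran from 0.00496 to 0.455, and 8 of these settings left VAMP7 uncalled.

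**Figure D2:**
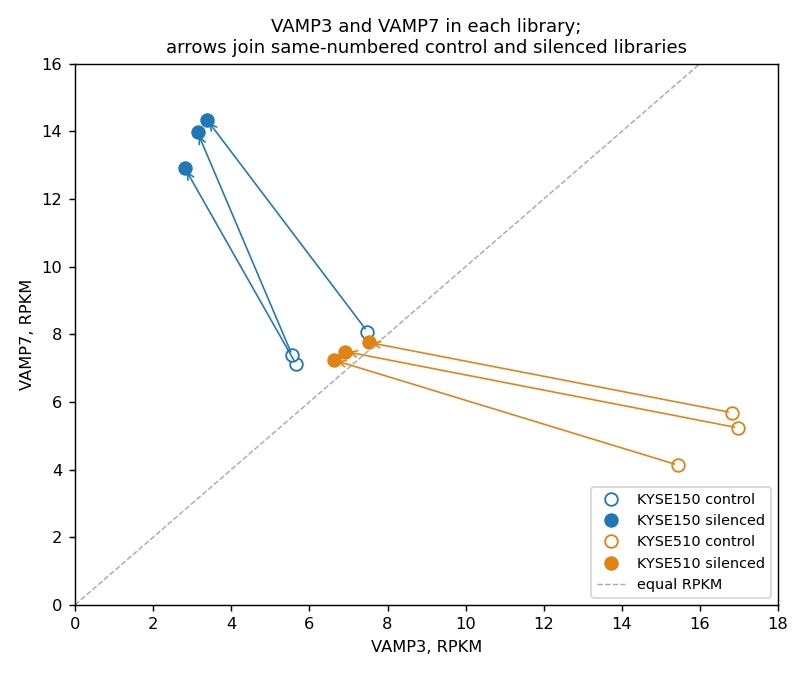
VAMP3 (x axis, RPKM) against VAMP7 (y axis, RPKM) in each library, open circles for controls and filled circles for silenced libraries, with arrows between same-numbered libraries of a line. All 6 arrows run to lower VAMP3 and higher VAMP7, and the KYSE510 silenced libraries end near the line of equal RPKM.

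The ratio of VAMP3 to VAMP7 was examined after both genes had been seen to move. KYSE150 controls had ratios of 0.796, 0.753 and 0.927, and the silenced libraries of that line 0.218, 0.224 and 0.235. KYSE510 controls had ratios of 3.74, 2.96 and 3.24, and the silenced libraries 0.916, 0.969 and 0.924. So VAMP3 was the more abundant of the pair in KYSE510 controls alone among the 4 groups. Their summed level was higher in the silenced libraries of KYSE150 (13.8 ± 1.57 against 16.9 ± 1.02 RPKM, SD, n = 3) and lower in those of KYSE510 (21.4 ± 1.62 against 14.5 ± 0.711, SD, n = 3).

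VAMP8, known as endobrevin and active in late endosome fusion and regulated exocytosis, was the most abundant of the 10 genes in every group. It had 67.4, 66.6 and 71.9 RPKM in KYSE150 controls and 65.4, 65.1 and 75.3 in silenced libraries. In KYSE510 it had 56.8, 54.1 and 56.8 in controls and 61.0, 53.3 and 61.1 after silencing. Silenced and control libraries overlapped in both lines, with log2 differences of -0.00 (95% interval -0.18 to 0.17) and 0.06 (-0.11 to 0.24) and limma adjusted p-values of 1 and 0.962. VAMP8 made up 66.2% to 79.6% of the summed RPKM of the 6 VAMP genes in single libraries. VAMP3 held 7.10% ± 0.829 of that sum before and 3.40% ± 0.130 after silencing in KYSE150, and 20.0% ± 0.685 and 9.06% ± 0.922 in KYSE510 (SD, n = 3). The share of VAMP7 was 8.59% ± 0.174 and 15.1% ± 0.671 in KYSE150, and 6.11% ± 0.908 and 9.66% ± 0.682 in KYSE510 (SD, n = 3).

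**Figure D3:**
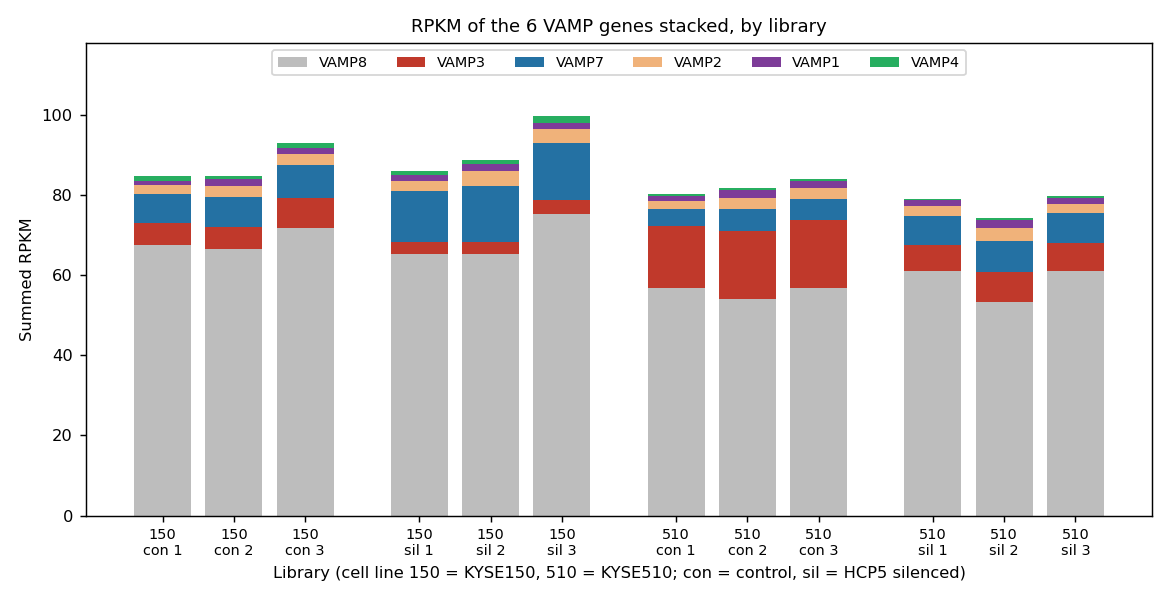
Stacked RPKM of the 6 VAMP genes in each library (y axis, summed RPKM from 0; x axis, library). VAMP8 fills most of each bar, the VAMP3 segment is widest in the 3 KYSE510 controls, and the VAMP7 segment is widest in the 3 KYSE150 silenced libraries.

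The remaining R-SNAREs were scarce. VAMP1 and VAMP2 are the synaptobrevins of regulated secretion, and VAMP4 works between the trans-Golgi network and endosomes. VAMP2 had 2.28 to 2.76 RPKM in KYSE150 controls, 2.49 to 3.63 in KYSE150 silenced libraries, 2.06 to 2.82 in KYSE510 controls and 2.25 to 3.27 in KYSE510 silenced libraries. VAMP1 ranged from 1.12 to 2.02 RPKM over all 12 libraries, and VAMP4 from 0.283 to 1.60. Their silenced and control libraries overlapped in both lines. The log2 differences of VAMP1 and VAMP2 in KYSE150 were 0.14 (95% interval -0.19 to 0.46, limma adjusted p = 0.655) and 0.23 (-0.12 to 0.58, 0.461). In KYSE510 the log2 differences were -0.05 (limma adjusted p = 0.988) and 0.05 (0.990). The VAMP4 values rest on 35 to 223 reads, with differences of 0.07 in KYSE150 (limma adjusted p = 0.869, and -0.06 after centring) and 0.02 in KYSE510 (1). VAMP2 shares 430 exon bases with RP11-599B13.6 on its own strand and VAMP1 339 with TAPBPL on the opposite strand, so part of their reads is uncertain.

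Set against these scarce R-SNAREs, VAMP3 exceeded VAMP2 in every control library, and after silencing in KYSE150 the pair had like levels. The level of VAMP2 was 0.422 ± 0.0643 of that of VAMP3 in KYSE150 controls and 1.01 ± 0.138 after silencing (SD, n = 3). In KYSE510 the same ratio was 0.153 ± 0.0174 and 0.376 ± 0.0559 (SD, n = 3).

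Of the plasma membrane syntaxins, STX3 serves the apical surface and STX4 the basolateral surface of epithelial cells. STX3 had 12.9, 14.1 and 13.3 RPKM in KYSE150 controls and 16.2, 15.6 and 15.9 in silenced libraries, without overlap. The log2 difference was 0.23 (SE 0.08, 95% interval 0.05 to 0.42), with a limma adjusted p of 0.197, which did not pass, and of 0.0355 with voom on recovered reads in a replicate block (range over alternatives 0.0355 to 0.636). In KYSE510 STX3 had 3.69, 3.88 and 3.67 RPKM in controls and 3.99, 3.14 and 3.70 after silencing, which overlapped (-0.05, limma adjusted p = 0.969). The changes of STX3 differed between lines by -0.29 (95% interval -0.54 to -0.03), with a limma adjusted p of 0.396.

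STX4 had 18.3 to 21.6 RPKM in KYSE150 controls and 19.9 to 22.7 in silenced libraries, and 7.40 to 9.30 and 7.74 to 9.28 in KYSE510. The log2 differences were 0.09 (95% interval -0.13 to 0.32, limma adjusted p = 0.662, and -0.04 after centring) and 0.02 (-0.21 to 0.24, 1). SNAP23, the Q-SNARE that gives a pair of helices to complexes at the surface of non-neuronal cells, had 8.59 to 10.5 RPKM in KYSE150 controls, 8.68 to 9.80 in silenced libraries, 5.26 to 5.65 in KYSE510 controls and 5.02 to 6.24 in silenced libraries. Its log2 differences were -0.07 (-0.29 to 0.15, limma adjusted p = 0.744) and 0.07 (-0.15 to 0.30, 0.964). SNAP23 overlaps RP11-265N6.1 by 846 bases and LRRC57 by 221 on the opposite strand. For both genes control and silenced libraries overlapped in each line.

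STX6, a syntaxin of the trans-Golgi network and early endosomes, was higher after silencing in 6 of 6 same-numbered pairs, as were 6.70% of all genes. It had 6.46, 6.33 and 7.82 RPKM in KYSE150 controls and 7.31, 7.72 and 9.82 in silenced libraries. In KYSE510 the values were 5.99, 7.28 and 7.58 in controls and 6.64, 7.56 and 8.70 after silencing. The groups overlapped in each line, and replicate 3 was the highest library in each of the 4 groups. The log2 differences were 0.25 (SE 0.14, limma adjusted p = 0.360) and 0.13 (SE 0.14, 0.952). In KYSE150 the limma adjusted p was 0.0184 with voom on recovered reads in the replicate block (range over alternatives 0.0184 to 0.567). STX6 shares 365 exon bases with RP11-46A10.5 on the same strand.

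Of the 9 genes other than VAMP3, then, 1 passed in KYSE150, where 0.499% of all genes did, and 0 passed in KYSE510, where 0.0393% did (limma). At an unadjusted p under 0.05 these counts were 2 and 1, where 18.1% and 6.35% of all genes lay. With voom on recovered reads in a replicate block they were 3 and 1, where 19.0% and 2.23% of all genes passed. Their median log2 difference was 0.14 in KYSE150 and 0.05 in KYSE510, against 0.08 and -0.02 over all genes tested. With the replicate block alone 6.70% of all genes passed in KYSE150 and 0.112% in KYSE510, and the counts among these 9 stayed at 1 and 0.

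**Figure D4:**
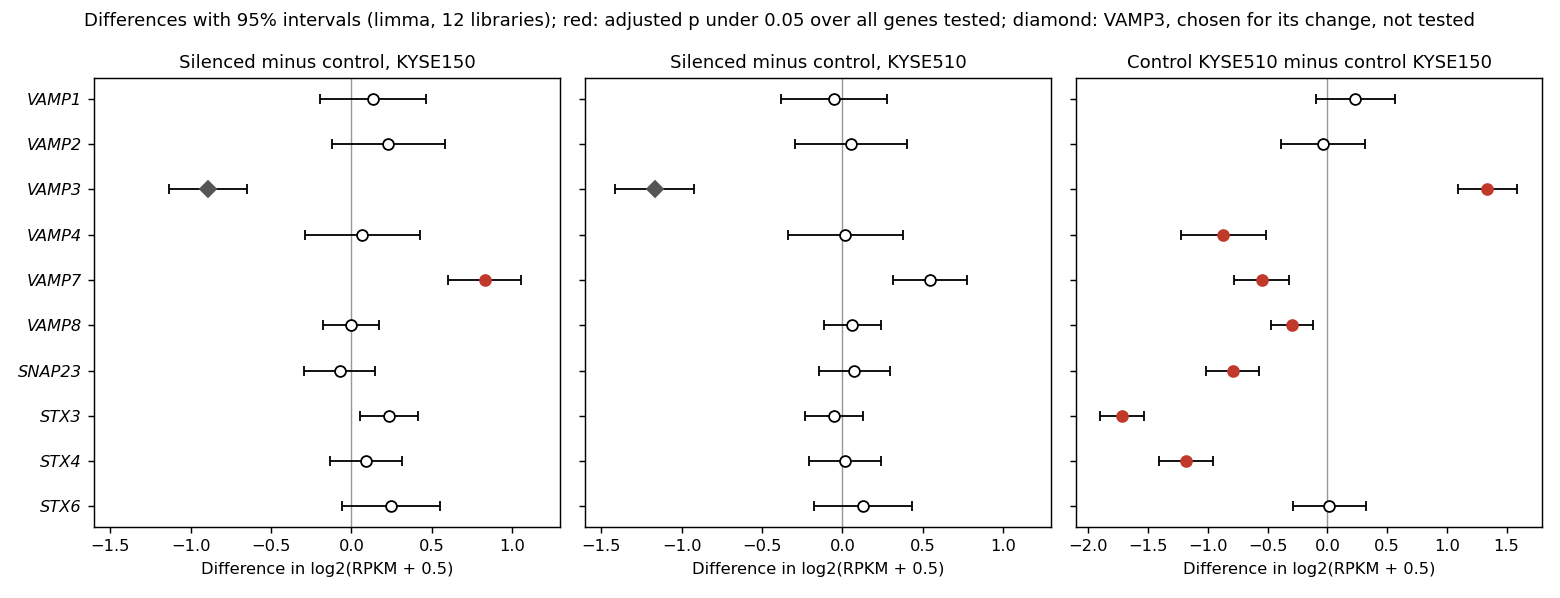
Differences in log2(RPKM + 0.5) with 95% intervals from limma for the 10 genes, silenced minus control in each line (left and middle) and control KYSE510 minus control KYSE150 (right). VAMP3 and VAMP7 lie far from 0 on opposite sides in the silencing panels, and in the right panel VAMP3 alone is called as higher while 6 genes are called as lower, VAMP4 having passed the filter through KYSE150 alone.

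Between unsilenced lines the set was divided. Of the 10 genes 7 passed the threshold, where 62.0% of all genes did: VAMP3 was higher in KYSE510, and STX3, STX4, VAMP4, SNAP23, VAMP7 and VAMP8 were lower. VAMP4 passed the filter through KYSE150 alone, since its KYSE510 controls lay under 0.5 RPKM, so its call is partly set by the filter. VAMP3 was 2.63-fold higher in KYSE510 controls (log2 difference 1.34, SE 0.11, limma adjusted p = 1.17e-06). STX3 was 3.59-fold and STX4 2.34-fold higher in KYSE150 controls, with log2 differences of -1.72 (SE 0.08, limma adjusted p = 1.37e-08) and -1.18 (SE 0.10, 1.66e-06). SNAP23 differed by -0.79 (SE 0.10, limma adjusted p = 3.76e-05). VAMP4 had 1.16 ± 0.229 RPKM in KYSE150 controls and 0.403 ± 0.0792 in KYSE510 controls (SD, n = 3), and its difference of -0.87 moved with the setting, from -1.51 to -0.62. VAMP7 and VAMP8 differed by -0.55 (SE 0.10, limma adjusted p = 0.000725) and -0.29 (SE 0.08, 0.00762). For these 7 genes the 3 controls of one line lay wholly above or below the 3 of the other, as in 28.5% (KYSE510 above) and 35.5% (below) of all genes. VAMP1 (0.23, limma adjusted p = 0.194), VAMP2 (-0.04, 0.851) and STX6 (0.02, 0.933) did not pass. These contrasts share the control libraries with the silencing contrasts, so both kinds of change are given side by side and not correlated.

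The order of levels followed these differences. In KYSE150 controls it ran VAMP8, STX4, STX3, SNAP23, VAMP7, STX6, VAMP3, VAMP2, VAMP1 and VAMP4, and in KYSE510 controls VAMP8, VAMP3, STX4, STX6, SNAP23, VAMP7, STX3, VAMP2, VAMP1 and VAMP4. Neighbours that overlapped were VAMP7 with STX6, STX6 with VAMP3 and VAMP1 with VAMP4 in KYSE150, and STX4 with STX6 and SNAP23 with VAMP7 in KYSE510. VAMP3 thus held rank 7 and rank 2. After silencing it held rank 8 in KYSE150, overlapping VAMP2, and rank 5 in KYSE510, overlapping VAMP7.

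Other genes of the pathway were taken from lists written from general knowledge. Among 24 tested genes for other SNAREs, 18 for SNARE regulators, 25 for recycling-endosome traffic and cargo and 14 for the tethers exocyst, GARP and EARP, 0 passed on silencing in either line (limma). At an unadjusted p under 0.05 the counts were 1, 1, 10 and 6 in KYSE150, against 18.1% of all genes, and 0, 1, 4 and 2 in KYSE510, against 6.35%. Median log2 differences in KYSE150 were 0.07, 0.06, 0.18 and 0.12, against 0.08 over all genes, and in KYSE510 0.00, -0.06, -0.01 and -0.01, against -0.02. With the replicate block 6 recycling genes passed in KYSE150, all higher, against 6.70% of all genes: the GTPase genes RAB10 (0.27, limma adjusted p = 0.0352), RAB11B (0.26, 0.0386), RAB14 (0.30, 0.0478) and ARF6 (0.61, 0.0359), the sorting nexin gene SNX4 (0.35, 0.0373) and MMP14 (0.48, 0.0283), a membrane protease that such vesicles carry. These 6 and the exocyst gene EXOC6B (0.31, 0.0377) were the only genes of the lists called with the block, and they were named after their values were seen. With voom in the block the counts in KYSE150 were 1, 2, 12 and 4, against 19.0% of all genes.

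Between control lines the lists split in both directions, against 28.3% of all genes higher in KYSE510 and 33.7% lower. Of the other SNAREs 4 were higher in KYSE510 and 13 lower, and the rule named STX11, BNIP1 (-1.51, SE 0.09) and SNAP47 (1.41, SE 0.10). Among regulators 5 were higher and 7 lower, and the rule named the complexin gene CPLX1 (-1.61, SE 0.22), STXBP6 and SNAPIN (1.03, SE 0.15). Recycling genes were higher in 7 and lower in 9 cases, and the rule named MMP14, RAB4A at 2.05 ± 0.369 RPKM in KYSE150 controls and 13.6 ± 0.132 in KYSE510 controls (SD, n = 3; 2.47, SE 0.10) and EHD4 (-1.50, SE 0.08). Of the tethers 6 were higher and 5 lower, and the rule named VPS50 (-1.18, SE 0.10), VPS53 (-1.14, SE 0.08) and EXOC5 (1.07, SE 0.08). Limma adjusted p-values of these 9 genes with a difference and SE ran from 4.31e-09 to 9.75e-05. STX11, STXBP6 and MMP14 passed the filter through KYSE150 alone, and their differences depend on the pseudocount and setting, so they are given as values. STX11 had 2.66 ± 0.275 RPKM in KYSE150 controls and 0.169 ± 0.0794 in KYSE510 controls (SD, n = 3; -2.24, and -4.01 to -1.64 over the alternatives). STXBP6 had 0.715 ± 0.188 and 0.0144 ± 0.00420 (SD, n = 3; -1.23, and -5.41 to -0.75). MMP14 had 48.9 ± 10.0 and 0.247 ± 0.0261 (SD, n = 3; -6.03, and -7.59 to -5.31).

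Of the 7 squamous and epithelial markers, which the silencing contrasts also covered, 0 passed in either line (limma). At an unadjusted p under 0.05 there were 2 in KYSE150 and 3 in KYSE510, against 18.1% and 6.35% of all genes. With the replicate block 5 and 1 passed, against 6.70% and 0.112%. Their median log2 difference was 0.58 in KYSE150 and 0.33 in KYSE510, and KRT17 in KYSE510 (0.33, limma adjusted p = 0.975) did not pass in either fit. KRT14, the marker called with the block in both lines, had 44.2 ± 32.2 and 195 ± 151 RPKM in KYSE150 controls and silenced libraries, and 5.60 ± 1.03 and 17.0 ± 2.65 in KYSE510 (SD, n = 3). The part of these differences in the VAMP7 or VAMP3 values was not tested.

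The genes whose profile was most like that of VAMP3 were sought among 14013 genes with a mean of at least 1 RPKM. With line means subtracted, the highest Pearson r over 12 libraries were those of TPD52L1 (0.97), TMED10 (0.97), FBXW2 (0.95), EPS15 (0.93) and SPATA13 (0.92). Without subtraction they were NUS1P1 (0.97), TMED10 (0.97), NCBP2 (0.96), NUS1 (0.96) and TXNRD3 (0.95), where NUS1P1 is a pseudogene of NUS1 and may share its reads. TMED10, for a cargo receptor of the early secretory pathway, was on both lists and had mean RPKM of 18.5 and 8.74 in KYSE150 controls and silenced libraries and 31.7 and 15.8 in KYSE510. VAMP7 stood near the other end, with an r of -0.85 after subtraction (rank 13961 of 14013) and -0.92 before. After subtraction the other SNARE genes ranked ran from 0.01 (VAMP1) to -0.36 (STX3). Each value is scaled to its own library's total, and silenced libraries of KYSE150 were all deeper than controls, so these r describe likeness only. VAMP3 was also chosen for its fall on silencing. An r with it draws on the same silencing differences as above, so the low r of VAMP7 is no separate result.

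Genes beside VAMP3 on chromosome 1 were examined for a change on silencing. The table holds 14 other genes that start within 500 kb, of which 6 were tested, and 0 passed in either line (limma, also 0 with the replicate block). Their log2 differences in KYSE150 ran from 0.01 to 0.39, and those in KYSE510 from -0.10 to 0.10. PARK7, an abundant neighbour, had mean RPKM of 60.9 and 61.9 in KYSE150 controls and silenced libraries and 83.7 and 78.2 in KYSE510. Between control lines 5 of the 6 passed, where 62.0% of all genes did. PER3 (1.63), RP3-467L1.4 (1.94), UTS2 (1.07) and PARK7 (0.46) were higher in KYSE510, where 28.3% of all genes were, and SNORA67 (-0.65) was lower. In KYSE150 controls and silenced libraries the mean RPKM were 0.386 and 0.454 for PER3 and 0.166 and 0.171 for UTS2. These means lie under the filter value of 0.5 RPKM, so both calls are partly set by the filter. The entry of SNORA67 spans copies far away on the chromosome.

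Promoter sequences are shown for the pair that moved in opposite directions, from 250 bases before to 50 after the start (RefSeq, GRCh38.p14). Both strands were searched for the E-box CACGTG, a sequence that c-Myc can bind, and for the GC box GGGCGG. Capitals mark GC boxes:
VAMP3 (chr1:7771046-7771345, plus strand): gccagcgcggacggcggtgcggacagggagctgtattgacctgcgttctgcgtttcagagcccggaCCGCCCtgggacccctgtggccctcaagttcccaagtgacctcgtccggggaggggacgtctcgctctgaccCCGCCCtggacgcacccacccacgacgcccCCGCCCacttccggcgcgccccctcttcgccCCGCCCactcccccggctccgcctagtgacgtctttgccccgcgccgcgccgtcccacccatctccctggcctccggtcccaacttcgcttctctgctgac
VAMP7 (chrX:155881095-155881394, plus strand): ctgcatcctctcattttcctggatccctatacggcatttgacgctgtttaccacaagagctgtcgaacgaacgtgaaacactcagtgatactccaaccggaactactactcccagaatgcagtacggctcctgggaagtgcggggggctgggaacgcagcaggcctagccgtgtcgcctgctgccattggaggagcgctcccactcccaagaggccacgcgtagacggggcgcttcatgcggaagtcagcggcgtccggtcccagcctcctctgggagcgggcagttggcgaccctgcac
VAMP3 holds 4 GC boxes in this window and VAMP7 holds 0, and neither holds the E-box. All 10 genes matched a RefSeq promoter, by 14 entries. The E-box occurred in a promoter of 2 genes, STX4 (1 of 3 starts) and STX6, and the GC box in one of 7. Counted by entry, 2 of 14 held the E-box and 9 of 14 the GC box. VAMP7 entered from X and from Y with the same letters. Over 35116 promoter entries of the same length the shares were 7.26% for the E-box and 45.0% for the GC box. A match describes letters and shows no binding.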

How the data were processed

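The authors deposited a table of RPKM for 38516 genes in 12 libraries, with exon positions in the form that featureCounts writes, per the file headers. The submitters' processing notes name HISAT2, DESeq and GRCh38, with no role or order. The annotation release and the use of strand are not given in the sources used here. In each library 100% of the deposited RPKM were whole multiples of 1 read within 0.02 reads, so reads per gene and library totals were recovered. RPKM are scaled to each library's assigned reads, so a few abundant genes can move all values.

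Differences were fitted with limma 3.58.1 in R 4.3.3 on log2(RPKM + 0.5), a scale that understates changes of low genes. The fit had 4 group means over 12 libraries, with a mean-variance trend. It covered 17823 genes with at least 0.5 RPKM in at least 3 libraries, with two-sided p-values adjusted by the Benjamini-Hochberg method over all of them. The fit was tested on simulated counts with a fixed spread and no replicate effect. That test does not cover the likeness of same-numbered libraries given below.

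Replicate numbers come from the titles. Across genes, deviations from the group means had correlations of 0.147 to 0.415 for the 6 same-numbered pairs of a control with a silenced library, and of -0.385 to 0.184 for other pairs. The ranges overlapped, since KYSE150 control 2 had 0.184 with silenced 1 and 0.147 with silenced 2. The main fit did not pair libraries. Numbers were used to count same-numbered pairs and in the replicate block, an alternative fit that pairs the libraries of each line. Further alternatives were other pseudocounts, filters, scalings, voom on recovered reads, the 6 libraries of a contrast alone and leaving out each library.

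The genes and lists were chosen with earlier results of these data known. Named were all 10 genes, up to 3 genes past the threshold with the largest change per list and contrast, the 5 most like VAMP3 with and without line means subtracted, and tested neighbours within 500 kb. Ratios, shares, promoter words, the 3′ UTR word and counts of pairs were added after seeing the values. Transcripts came from GENCODE release 29 and promoters from RefSeq. Protein sequences were not used here.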

Additional observations from a re-analysis of the deposited data

How the results depend on the processing

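Of the 9 genes other than VAMP3, 1 passed in KYSE150 and 0 in KYSE510. With VAMP3, which was chosen for its change and so is counted as a description only, the numbers were 2 and 1. Counted with VAMP3, the number was 0 in each with the 6 libraries of a contrast alone. With voom on recovered reads in the replicate block it was 4 and 2, and 3 and 1 without VAMP3. In that setting 19.0% and 2.23% of all genes passed. After centring or quantile normalization the number with VAMP3 was 2 in KYSE510. The count over all genes moved with the setting too, as given below. Leaving out 1 library gave, with VAMP3, 1 to 2 in KYSE150, with 1 only without KYSE150 silenced replicate 3, and 1 in KYSE510. The 1 in KYSE510 was VAMP3 each time, the gene chosen for its change, so it shows no stability of the other 9. The lowest limma adjusted p of VAMP7 in KYSE510 was 0.131 in these fits. Between control lines the number was 6 to 7 over the alternatives, and over all genes 9038 to 12619. For the difference between lines 0 of the 10 genes passed throughout. The replicate block changed no call among the 10 genes. It moved the count over all genes in KYSE150 from 89 to 1194, and that in KYSE510 from 7 to 20. Over other settings that count ran from 7 to 3381 and from 0 to 397, and without 1 library from 15 (KYSE150 silenced replicate 3) to 1287 (KYSE150 control replicate 3) and from 2 to 7. No blocked value exists between control lines, which lie in different blocks. Small differences changed sign. VAMP4 in KYSE150 was -0.0612 after centring and -0.0326 after quantile normalization, and -0.00343 in KYSE510 with voom on recovered reads, and STX4 in KYSE150 was -0.0379 after centring. Without 1 library in turn, the differences in KYSE150 ran from -0.0741 to 0.166 for VAMP4 and from -0.0709 to 0.0328 for VAMP8. In KYSE510 they ran from -0.172 to 0.0440 for VAMP1, -0.0839 to 0.144 for VAMP2, -0.0972 to 0.128 for VAMP4, -0.119 to 0.0322 for STX3 and -0.0713 to 0.0844 for STX4. Between control lines they ran from -0.114 to 0.0776 for VAMP2 and from -0.0467 to 0.111 for STX6. The cause was not tested. Depth limits VAMP4 most, whose values rest on 35 to 223 reads.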
